A study of Mus musculus with 18 samples.

Results

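Axon guidance ligands and receptors are the secreted, membrane-tethered and transmembrane proteins that steer growing axons and migrating cells. The 69 members were chosen by gene symbol from the 21887 protein-coding genes of the RefSeq table for GRCm38.p6, the assembly that mm10 stands for. They comprise the semaphorins, netrins, Slits and ephrins (35 ligands) and the plexins, neuropilins, Dcc and Unc5 genes, Robo genes and Eph genes (34 receptors). Their occupancy by H3K27me3, the histone mark written by Polycomb repressive complex 2, was read from peak lists made by CUT&Tag, an assay in which a transposase tethered to an antibody cuts the DNA around the mark. A gene was taken as marked in a library if a peak overlapped the gene, or the 1 kb beyond either end, by 1 bp or more.

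The libraries came from headfolds, the anterior part of the mouse embryo, at embryonic day 8.5, with a single headfold in each reaction. All embryos were Gulo-/-, so that none could make vitamin C, and the question posed by the design is how withdrawal of the vitamin acts in each of 2 strain backgrounds. The 4 groups were B6 headfolds without vitamin C, B6 headfolds with vitamin C given in drinking water (3.3 g/l), 129 headfolds without vitamin C, and 129 headfolds with vitamin C at the same dose. Each group held 3 libraries, from 2 female embryos and 1 male embryo, and in B6 with vitamin C all 3 embryos carry a single pregnancy code, so that this pregnancy and the vitamin cannot be told apart in B6. A headfold mixes neural, surface ectoderm, mesenchymal and other cells. Fewer cells carrying the mark and less mark per cell cannot be told apart in such a mixture.

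Netrins attract axons through Dcc and repel them through Unc5 receptors, Slits repel through Robo receptors, semaphorins signal through plexins with or without neuropilins, and ephrins signal in both directions with Eph receptors on touching cells. Axons have barely begun to grow in the headfold, and many of these genes are better known at this stage for neural crest migration, tissue boundaries and vessel growth. Polycomb repression is known to cover developmental genes that a tissue does not use or uses in few of its cells, often over promoters rich in the dinucleotide CG. A peak does not measure transcription.

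The lists differed greatly in extent, with 748 to 4726 peaks covering 3.58 to 31.7 Mb, and their read depth is unknown. B6 headfolds without vitamin C had the shortest lists, at 7.57 ± 6.42 Mb, against 15.7 ± 9.86 Mb in B6 with vitamin C, and 129 lists covered 19.7 ± 11 Mb without and 23.3 ± 7.4 Mb with vitamin C (mean ± SD, n = 3 each). B6 without vitamin C replicate 1 and B6 with vitamin C replicate 2 stood apart by their short peaks, with median widths of 1.32 and 1.41 kb, against 3.93 to 8.45 kb in the other lists. As a check of the tissue, Lhx2 and Rax, 2 transcription factors of the anterior neural plate, were marked in 12 libraries and Otx2, Sox2 and Hesx1 in 3, 2 and 0. The mesodermal genes Tbx1 and Mesp1 were marked in 12 and 11, and Foxa2 and Sox17 of the notochord and endoderm in 11 each. The marks of these regulators do not give the proportions of the cell types.

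H3K27me3 lay on 36 of the 69 members (52.2%) in at least 1 library, where 20.2% of all protein-coding genes were marked. The mark recurred on 10 members (14.5%) in 10 libraries or more, against 5.93% of all protein-coding genes, and on 3 members in all 12, where the share over all genes is 2.18%. A further 26 members were marked in 1 to 9 libraries and 33 in none. The members are longer than most genes, with a median of 46.3 kb against 17.2 kb over all protein-coding genes, and a long gene offers more sequence for a peak to touch. The median length was 20.4 kb for the 10 recurrent members and 177 kb for members marked in 6 to 9 libraries. It was 197 kb for those in 1 to 5 and 26.5 kb for those never marked. The part of gene length in the share of members marked was not tested. When only the windows of 1 kb around the gene ends were read, 7 members (10.1%) remained at 10 or more libraries, against 4.73% of all genes.

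**Figure D1:**
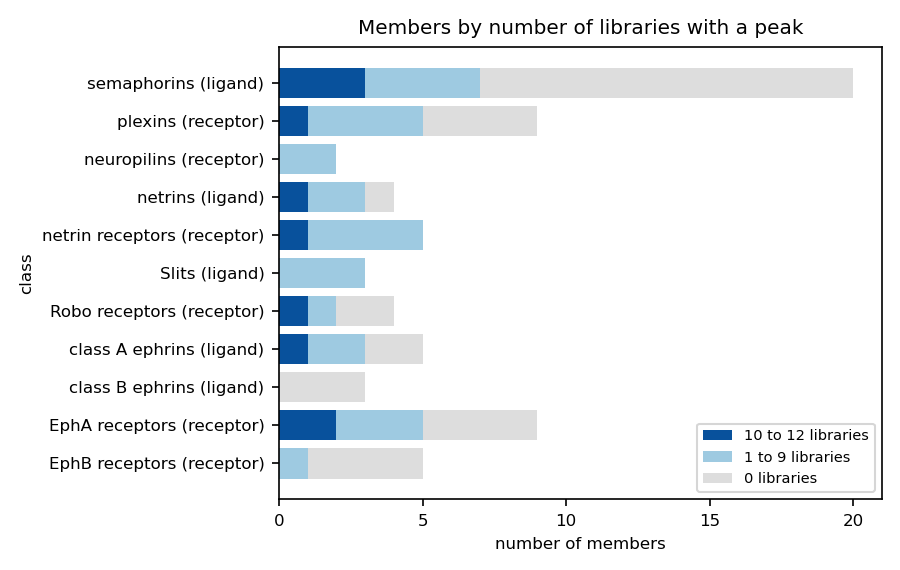
Bars give the number of members in each class, split by the number of libraries (10 to 12, 1 to 9 or 0 of 12) in which a peak touched the gene. Class B ephrins held 3 members and no marked one, while all 5 netrin receptors, all 3 Slits and both neuropilins were marked in at least 1 library. Median gene lengths were 13 kb for class B ephrins and 369, 326 and 131 kb for netrin receptors, Slits and neuropilins. The part of length in this contrast was not tested.

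Promoters of the members were on a peak in 0 to 12 libraries. The promoter table from RefSeq (GRCm38.p6, 250 bases before to 50 after the start) had an entry for 59 members and none for Sema3b, Sema3f, Sema6a, Ntn1, Slit1, Efnb3, Plxna1, Plxna4, Dcc and Unc5d. For a gene with several listed starts, the start on a peak in most libraries was kept, and among equals the start with more CG. A peak covered at least 1 base of the promoter in at least 10 libraries for 4 of the 59 (Efna3, Epha8, Robo3 and Sema7a), where the share over 17492 protein-coding promoters is 3.3%, and in at least 1 library for 26 of the 59, where it is 14.6%. Their sequences are printed with those of Efna4 and Robo4, close neighbours of Efna3 and Robo3 that were marked in 0 libraries. Capitals show each CG dinucleotide, which reads the same on both strands, and all sequences run 5′ to 3′ on the strand of the gene.

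The class A ephrin promoters of Efna3 (chr3:89321719-89322018, minus strand, on a peak in 12 libraries, 34 CG) and Efna4 (chr3:89337979-89338278, minus strand, on a peak in 0 libraries, 11 CG) read as follows.
Efna3: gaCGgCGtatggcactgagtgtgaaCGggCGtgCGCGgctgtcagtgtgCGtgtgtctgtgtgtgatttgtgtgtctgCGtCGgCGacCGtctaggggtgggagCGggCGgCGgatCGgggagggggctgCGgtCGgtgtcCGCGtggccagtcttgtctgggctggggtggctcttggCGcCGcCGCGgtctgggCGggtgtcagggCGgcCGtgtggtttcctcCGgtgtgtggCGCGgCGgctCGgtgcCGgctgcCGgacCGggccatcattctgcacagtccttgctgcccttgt
Efna4: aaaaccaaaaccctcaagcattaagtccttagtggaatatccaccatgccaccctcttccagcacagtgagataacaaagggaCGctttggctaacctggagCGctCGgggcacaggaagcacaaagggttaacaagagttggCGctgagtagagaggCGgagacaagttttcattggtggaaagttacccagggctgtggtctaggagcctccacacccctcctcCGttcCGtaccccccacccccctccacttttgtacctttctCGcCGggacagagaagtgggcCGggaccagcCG

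The Robo promoters were those of Robo3 (chr9:37433126-37433425, minus strand, on a peak in 10 libraries, 17 CG) and Robo4 (chr9:37401722-37402021, plus strand, on a peak in 0 libraries, 2 CG).
Robo3: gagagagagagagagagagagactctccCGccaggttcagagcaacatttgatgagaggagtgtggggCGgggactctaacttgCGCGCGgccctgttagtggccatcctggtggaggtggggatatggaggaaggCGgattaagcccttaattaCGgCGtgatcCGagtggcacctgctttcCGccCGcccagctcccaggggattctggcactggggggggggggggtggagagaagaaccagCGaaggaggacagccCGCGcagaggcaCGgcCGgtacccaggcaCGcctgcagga
Robo4: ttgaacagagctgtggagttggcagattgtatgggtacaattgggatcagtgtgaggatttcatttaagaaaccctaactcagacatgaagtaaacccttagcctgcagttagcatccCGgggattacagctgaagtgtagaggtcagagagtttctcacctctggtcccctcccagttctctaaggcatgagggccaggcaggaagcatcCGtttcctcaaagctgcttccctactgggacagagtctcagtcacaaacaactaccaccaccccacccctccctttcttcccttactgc

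The promoters of the ligand Sema7a (chr9:57939862-57940161, plus strand, on a peak in 10 libraries, 23 CG) and the receptor Epha8 (chr4:136956767-136957066, minus strand, on a peak in 10 libraries, 56 CG) complete the set.
Sema7a: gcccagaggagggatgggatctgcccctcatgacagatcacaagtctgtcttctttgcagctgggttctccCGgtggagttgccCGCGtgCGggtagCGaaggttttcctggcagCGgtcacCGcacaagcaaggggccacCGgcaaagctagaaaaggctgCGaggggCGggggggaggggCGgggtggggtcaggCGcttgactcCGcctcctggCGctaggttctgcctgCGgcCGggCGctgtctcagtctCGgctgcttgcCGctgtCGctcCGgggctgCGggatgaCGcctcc
Epha8: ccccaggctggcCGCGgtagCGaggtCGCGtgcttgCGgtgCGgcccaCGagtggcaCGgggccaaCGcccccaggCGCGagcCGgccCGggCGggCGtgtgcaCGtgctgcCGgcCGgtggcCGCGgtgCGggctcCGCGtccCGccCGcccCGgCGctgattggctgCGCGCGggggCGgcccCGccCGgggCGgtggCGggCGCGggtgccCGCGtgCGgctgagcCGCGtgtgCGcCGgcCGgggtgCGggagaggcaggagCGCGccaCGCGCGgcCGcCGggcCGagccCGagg

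Over the 59 member promoters the median was 23 CG in 300 bases, against 14 over all protein-coding promoters, and 55.9% of the members against 38.6% of all genes held at least 20. At least 1 CG was present in 95% of all promoters. Within the members, promoters on a peak in at least 10 libraries had a median of 28.5 CG (17 to 56, 4 promoters), those on a peak in 1 to 9 libraries 23 (7 to 37, 22 promoters) and those on no peak 18 (2 to 42, 33 promoters). Over all genes the same classes had medians of 21, 20 and 13. Each promoter was picked by its peaks and then by its CG, so these medians depend on that choice. A high count did not by itself go with the mark, since Sema3c with 42 CG, Slit3 with 41, Efna5 with 38, Plxnb1 with 36, Efnb2 with 35 and Ephb6 with 34 were on no peak at the promoter in any library. Robo3, with 17 CG, lay below the median of the members.

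**Figure D2:**
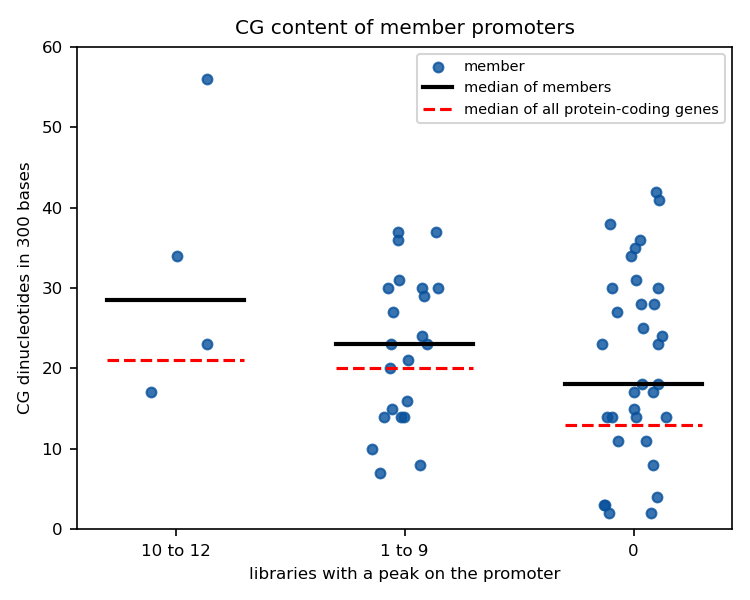
Each point is the number of CG dinucleotides in the 300 bases of a member promoter, grouped by the number of libraries with a peak on that promoter; black lines are medians of members and red dashed lines medians of all protein-coding genes. The ranges of the 3 groups overlap, from 17 to 56, 7 to 37 and 2 to 42 CG.

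By role, 5 of 35 ligands (14.3%) and 5 of 34 receptors (14.7%) reached 10 libraries, and 16 ligands (45.7%) and 20 receptors (58.8%) had a peak in some library. Ranks below are the percentile of a peak's total signal within its own list, with 100 for the strongest, and widths are those of the widest peak on the gene in that library. Both describe a library by its own list and were not compared by a test.

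Of the 20 semaphorins, 3 reached 10 libraries, 4 were marked in 1 to 9 and 13 in none. Sema7a (chr9:57939596-57962865, mm10), the semaphorin with a glycolipid anchor, carried a peak in every library. Its widest peak measured 1.37, 4.34 and 7.97 kb in B6 headfolds without vitamin C, against 6.37, 5.21 and 9.71 kb in B6 with vitamin C, and 8.69, 2.52 and 9.92 kb in 129 without vitamin C, against 11.6, 7.55 and 7.55 kb in 129 with vitamin C. Widths overlapped between all groups, and the narrowest peaks were in a list of short peaks (B6 without vitamin C replicate 1) and in the smallest 129 list (without vitamin C replicate 2). The transmembrane class 6 genes Sema6c and Sema6b were marked in 11 and 10 libraries. Sema6c, 13.6 kb long, carried a peak near its far end in 11 libraries, with maxima 11.5 to 13.9 kb from its lower-coordinate end and ranks of 41.9 to 80.7, and another at that end in 7 libraries, at ranks of 10.5 to 57.

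Sema6b carried peaks at both of its ends. In all 10 marked libraries a peak sat at its lower-coordinate end, with the maximum outside the gene. A peak on Sema6b also touched Lrg1, a gene for a secreted glycoprotein, in 10 libraries. In B6 with vitamin C replicate 2 the lower end held another peak, 1.52 kb wide at rank 68.9, with its maximum 0.05 kb inside the gene. A separate peak nearer the start was called in 7 libraries, at 4.52 to 27.3 kb. In some it was the wider and stronger, as in B6 with vitamin C replicate 4 (25.1 kb at rank 94.8, against 10.9 kb at 89.3). In others it was the narrower and weaker, as in 129 without vitamin C replicate 1 (6.24 kb at rank 29.5, against 8.44 kb at 84). The broadest of these peaks had maxima 8.43 to 9.47 kb outside the gene, upstream of the start. The call for Sema6b therefore rests in 3 libraries on peaks at its lower-coordinate end alone, and in these libraries a peak also touched its neighbour. Sema5b (9 libraries), Sema6d (7), Sema4f (6) and Sema3d (2) made up the other marked semaphorins. The secreted class 3 genes other than Sema3d (Sema3a, Sema3b, Sema3c, Sema3e, Sema3f and Sema3g) were marked in 0 libraries, as were Sema4a, Sema4b, Sema4c, Sema4d, Sema4g, Sema5a and Sema6a.

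Among netrins, Ntn3, a secreted ligand of Dcc and Unc5 receptors, was marked in 11 libraries, and in 8 of them its peak also touched Tbc1d24. Ntn1, the founding netrin, and Ntn4, a netrin of basement membranes, were each marked in 9, and Ntn5 in 0. Ntn1 bore some of the widest member peaks. They measured 4.15 and 4.71 kb in the marked B6 headfolds without vitamin C, against 8.41 and 17.9 kb in B6 with vitamin C, and 22 and 23.7 kb in 129 without vitamin C, against 24.9, 21.8 and 21.3 kb in 129 with vitamin C. All 129 widths lay above all B6 widths, but 1 library of every group other than 129 with vitamin C had no peak there. The maxima of these peaks lay 1.9 to 11 kb beyond the higher-coordinate end of Ntn1, except in B6 without vitamin C replicate 4. On average over the 12 libraries, 4010 bp of the gene with its 1 kb margins was covered. Much of the width therefore lay outside the gene.

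The 3 Slits, secreted ligands of Robo receptors, were marked in 8 (Slit1), 5 (Slit2) and 5 (Slit3) libraries. Peaks of Slit2 reached its start in 3 libraries, whereas those of Slit3 had their maxima 204 to 207 kb inside the gene and none covered a listed start. The class A ephrins, held on the membrane by a glycolipid, differed among neighbours. Efna3 (chr3:89313899-89322939) was marked in 12 libraries, Efna1, 32.9 kb away, in 3, and Efna4, 10.5 kb away, in 0. The widest peak on Efna3 measured 1.26, 5.16 and 5.77 kb in B6 without vitamin C, against 5.86, 2 and 9.12 kb in B6 with vitamin C, and 9.97, 4.13 and 9.48 kb in 129 without vitamin C, against 10.1, 9.48 and 8.86 kb in 129 with vitamin C. The widths of 129 with vitamin C lay closest together, and they overlapped those of B6 with vitamin C and of 129 without. Efna2 was marked in 5 libraries, with maxima 6.15 to 11.5 kb downstream of its listed start and, in 3 of these libraries, beyond its far end, and Efna5 in 0. No library listed a peak on Efnb1, Efnb2 or Efnb3, the transmembrane class B ephrins.

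Among semaphorin receptors, some were marked where their ligand was not and others the reverse. Plxnd1, the receptor of Sema3e, was marked in 11 libraries, its ligand in 0. Plxnc1, the receptor of Sema7a, was marked in 3 libraries, its ligand in 12. Plxna4, a receptor of class 3 and class 6 semaphorins, was marked in 9 libraries, Plxna2 in 2, and Plxna1, Plxna3, Plxnb1 and Plxnb2 in 0. Plxnb3 on the X chromosome was marked in 1 library, and the other X-linked members, Plxna3 and Efnb1, in 0. The neuropilins, co-receptors of class 3 semaphorins, were marked in 5 (Nrp1) and 4 (Nrp2) libraries.

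All 5 netrin receptors were marked somewhere. Unc5a (chr13:54945151-55006018), a receptor for repulsion by netrin, was marked in 11 libraries and had the highest median rank of the 10 recurrent members, 91.2. The strongest peak stood at 65.8 and 92.1 in the 2 marked B6 headfolds without vitamin C, against 94.6, 97.4 and 96 in B6 with vitamin C, and at 90.1, 51.8 and 90.2 in 129 without vitamin C, against 91.7, 87.3 and 91.2 in 129 with vitamin C. The lists differ in length, so no difference between groups was read from these ranks. Unc5d was marked in 8 libraries, Unc5b in 6, and Unc5c and Dcc, the attractive netrin receptor, in 4 each. Among the Robo genes, Robo3, which governs midline crossing of commissural axons, was marked in 10 libraries, Robo1 in 7, and Robo2 and the endothelial Robo4, 2.02 kb from Robo3, in 0. The peaks of Robo1 had maxima at -635 to -633 kb from its listed start. They lay at the lower-coordinate end of the gene, its 5′ end on the plus strand.

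Of 9 EphA genes 2 reached 10 libraries and 3 were marked in 1 to 9, whereas of 5 EphB genes only Ephb1 was marked, in 3. The difference between these classes was not tested, and their median gene lengths were 148 kb and 24.4 kb. Epha10 (chr4:124881530-124917801), whose kinase domain lacks activity, carried a peak in 12 libraries with widths of 2.51, 3.78 and 9.35 kb in B6 without vitamin C, against 5.72, 1.5 and 17.2 kb in B6 with vitamin C, and 17.9, 3.11 and 22.2 kb in 129 without vitamin C, against 22.1, 18.3 and 17.4 kb in 129 with vitamin C. The 3 widths of 129 with vitamin C were all above every B6 width, and 129 without vitamin C replicate 2, a small list, fell among the B6 values. Its maximum lay 11.9 kb inside the gene at the median, and in 8 libraries the peaks also touched Maneal. Epha8 was marked in 11 libraries, Epha5 and Epha6 in 9 and Epha2 in 8, and Epha1, Epha3, Epha4 and Epha7 in 0, as were Ephb2, Ephb3, Ephb4 and Ephb6. Epha8 lies 93.1 kb from Ephb2.

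Members marked in more libraries also ranked higher within the lists. The 10 members in at least 10 libraries had a median rank of 74.2 (range of the members' medians 50.2 to 91.2), the 13 in 6 to 9 libraries 45 (22.7 to 89.8) and the 13 in 1 to 5 libraries 16.8 (1.48 to 41.1), with median widths of 7.29, 6.64 and 4.47 kb. These values are descriptive, because a weak peak is also the one most easily missed in a short list. Just inside the count of 10 stood Robo3 and Sema6b, and just outside it, at 9, stood Epha5, Epha6, Ntn1, Ntn4, Plxna4 and Sema5b. The median rank of marked members per library was 38.8 to 59, against 53.2 to 62.4 for the other marked genes of the same list. Members ranked above the other genes in B6 with vitamin C replicate 1 (59 against 56.3) and 129 with vitamin C replicate 2 (58.4 against 57.9), and below them in the other 10 lists.

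**Figure D3:**
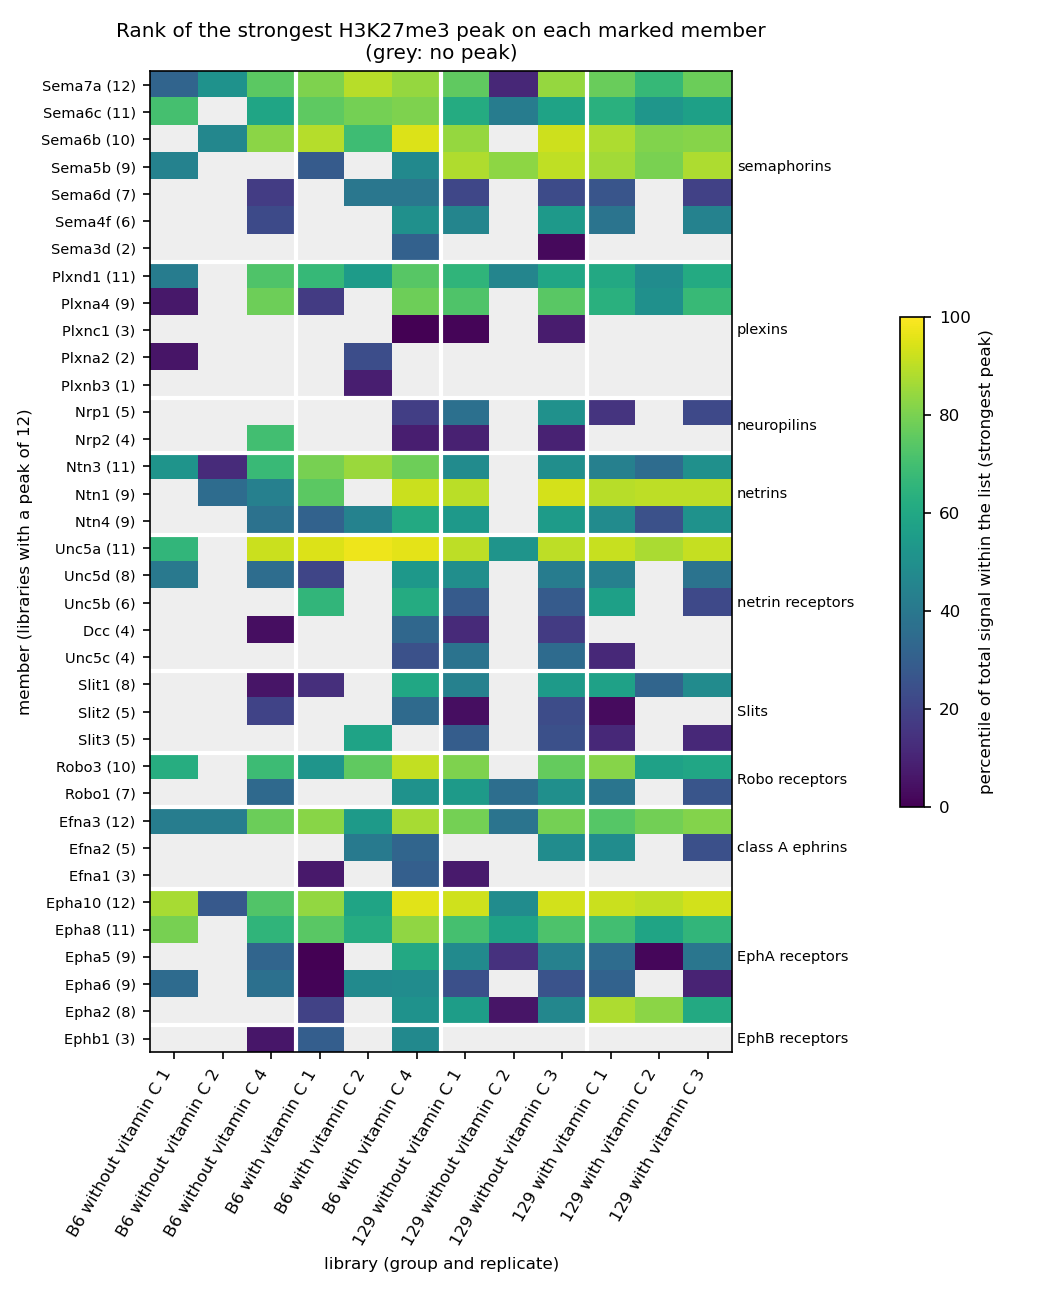
Colour gives the percentile of total signal, within its own list, of the strongest peak on each of the 36 marked members (down the page) in each of the 12 libraries (columns, by group); grey is no peak. The 10 members marked in at least 10 libraries are filled nearly throughout, and B6 without vitamin C replicate 2 is mostly grey with 6 marked members.

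On most members the mark lay around the start. Of 263 peaks on the 31 marked members with a listed start, 173 (65.8%) covered one, 188 (71.5%) had their maximum within 5 kb of one, and 200 (76%) had it downstream. Distances were taken to the nearest listed start. Only peaks touching the gene or the 1 kb beyond either end were read, which favours positions downstream of a start. The same shares were not computed over all genes. A peak covered a listed start in at least 1 library on 26 of these members. No listed start was covered on Efna2, Slit3, Robo1, Plxna2 (maximum 130 kb inside the gene) or Plxnb3 (11.6 kb inside). Robo1 differs from the others, as its maxima lay 0.353 to 2.2 kb inside its lower-coordinate end. That end is the 5′ end of this plus-strand gene, and its nearest listed start lies far downstream. No peak touched 2 members at once.

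**Figure D4:**
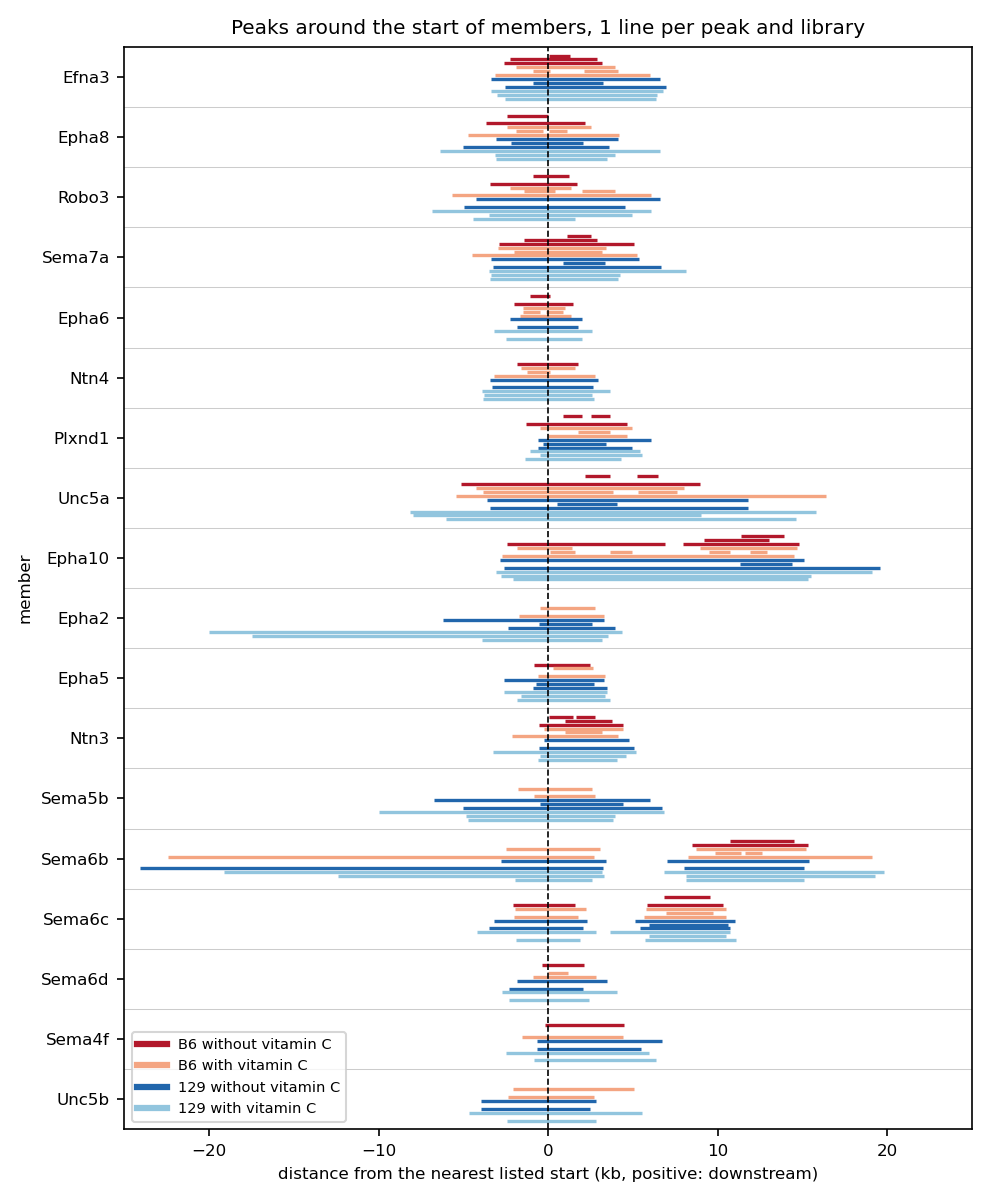
Each line is a peak in a single library, drawn by its distance in kb from the nearest listed start (positive downstream), for the members whose promoter was on a peak in at least 6 libraries; colours are the 4 groups, and peaks farther than 25 kb are not drawn. Most peaks straddle the start, Sema6c carries a site with maxima 7.56 to 9.97 kb from the nearest listed start and Epha10 one reaching maxima of 13.6 kb, and Epha2 extends upstream of the start in 129 with vitamin C replicates 1 and 2.

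Vitamin C was compared first. In B6 headfolds without vitamin C 14, 6 and 24 members were marked, against 22, 17 and 33 with vitamin C. In 129 headfolds the counts were 31, 11 and 32 without and 28, 17 and 26 with vitamin C. The groups overlapped in both backgrounds. As shares, 21.3% ± 13.1 of the members were marked in B6 without vitamin C, against 34.8% ± 11.9 with (SD, n = 3 each), a difference of -13.5 points, and in 129 35.7% ± 17.2 without, against 34.3% ± 8.49 with, a difference of 1.45 points. The difference in B6 was about the SD between its libraries and that in 129 was far below it.

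Over all protein-coding genes the difference had the same sign in B6 and the opposite sign in 129, with 6.7% ± 3.77 marked in B6 without vitamin C, against 12.3% ± 4.21 with (a difference of -5.61 points), and in 129 11.1% ± 4.88 without, against 11.5% ± 2.55 with (a difference of -0.439 points). In each library the share of members was 2.39 to 3.37 times that of all genes. The count of marked members followed the extent of the list, with 26 to 33 in the 5 lists of at least 20 Mb, 17 to 24 in the 3 lists of 10 to 20 Mb and 6 to 17 in the 4 lists under 10 Mb. The part of list extent in the difference between the B6 groups was not tested.

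**Figure D5:**
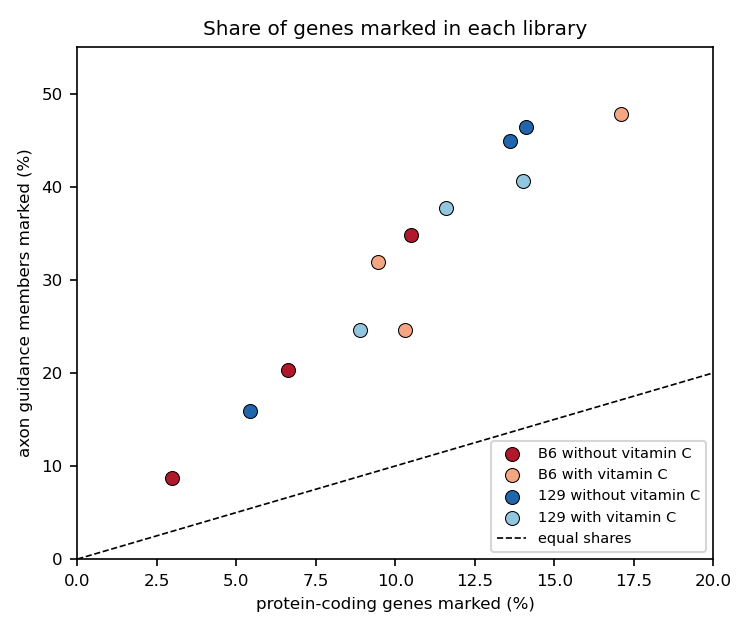
Each point is a library, with the percentage of all protein-coding genes marked on the x axis and the percentage of axon guidance members marked on the y axis; the dashed line is equality and colours are the 4 groups. All 12 libraries lie above the line, at 2.39 to 3.37 times the share of all genes, and the 4 groups overlap.

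Gene by gene, no call was made for vitamin C. Diet labels were exchanged within background in an exact permutation test (400 relabellings, smallest possible p 0.005), over the 3460 genes marked in at least 2 libraries, 35 of them members, with Benjamini-Hochberg adjustment over all 3460. At an adjusted p under 0.05 there were 0 members and 0% of all genes, and at an unadjusted p under 0.05 0 members and 0.0289% of all genes. With so few relabellings, an adjusted call needed many genes to reach the smallest p together. The absence of adjusted calls therefore does not show that vitamin C had no effect, and the same limit holds for the tests below. By direction alone, 5 members were marked more often without vitamin C, where 7.31% of all tested genes were, 22 more often with it, where 62.2% of all genes were, and 8 equally often. As shares of the 35 tested members these are 14.3% and 62.9%, the second close to that of all genes. Complete separation of the diets in B6, 3 libraries against 0, was shown by no member and by 0% of genes in favour of the libraries without and 1.97% in favour of those with vitamin C; in 129 it was again no member, against 0.0289% and 0.0578% of all genes.

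The largest differences with vitamin C were those of Ntn4 and Efna2, of 3 libraries each. Ntn4 was marked in 3 of 6 libraries without and 6 of 6 with it (exact permutation p = 0.2, adjusted p = 1). Efna2 was marked in 1 library without and 4 with vitamin C (exact permutation p = 0.26), Epha2 in 3 and 5 (exact permutation p = 0.4), and Sema6b and Robo3 in 4 and 6 each (exact permutation p = 0.5). Slit1 was marked in 3 without and 5 with, and Unc5b in 2 and 4. In the other direction stood Nrp2 and Dcc, each marked in 3 libraries without and 1 with vitamin C (exact permutation p = 0.56). Nrp2 and Dcc are both receptors, and the members named in the direction of vitamin C held ligands and receptors.

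Whether the diets acted differently in the 2 backgrounds was tested by the difference of their effects, 129 minus B6, with the same relabellings. It gave 0 members and 0% of all genes at an adjusted p under 0.05, and 0 members and 0.0578% of all genes at an unadjusted p under 0.05. The effect was higher in 129, that is, shifted towards libraries without vitamin C, for 23 members, where it was for 56.6% of all genes, and higher in B6 for 3, where it was for 8.01% (65.7% and 8.57% of the tested members). Efna1 was marked in 1 library of 129 without and 0 with vitamin C, and in 0 of B6 without and 2 with (exact permutation p = 0.2). Plxnc1 was marked in 2 of 129 without and 0 with vitamin C, and in 0 of B6 without and 1 with (exact permutation p = 0.2). Epha2, Unc5b, Nrp2, Unc5c, Dcc and Sema3d had the next largest values, all in the direction of 129 and with an adjusted p of 1 by the exact permutation test.

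Between the strain backgrounds no call was made either. In B6 and 129 headfolds without vitamin C the mean share of members marked differed by -14.5 points (B6 minus 129), and with vitamin C by 0.483 points, against -4.36 and 0.803 points over all protein-coding genes. Background labels exchanged within diet gave 0 members and 0% of all genes at an adjusted p under 0.05 (exact permutation, smallest possible p 0.005), and 0 members and 0.434% of all genes at an unadjusted p under 0.05. More libraries were marked in B6 for 5 members, where this was so for 10.9% of all genes, and in 129 for 21, where it was for 59.3%, and 9 were equal. These are 14.3% and 60% of the tested members. Library names in the labels also run by background, so that whatever goes with that order and the strain cannot be told apart.

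Epha2 (chr4:141301221-141329384), a receptor tyrosine kinase for class A ephrins, had the smallest p of the members, marked in 2 of 6 B6 and 6 of 6 129 libraries (exact permutation p = 0.05, adjusted p = 1). In B6 it had no peak without vitamin C and peaks of 3.22 and 4.97 kb in 2 libraries with it. In 129 the peaks measured 9.53, 3.09 and 6.35 kb without vitamin C, against 24.3, 21 and 7.11 kb with it. The 2 broad peaks, both in 129 with vitamin C, extended away from the gene, and the maximum stayed at 1.39 to 1.92 kb inside the start in all 8 marked libraries.

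Sema5b (chr16:35541154-35664261), a transmembrane semaphorin with thrombospondin repeats, was marked in 3 of 6 B6 and 6 of 6 129 libraries (exact permutation p = 0.2, adjusted p = 1). It carried separate sites at its 2 ends. At the start, B6 without vitamin C had no peak in any library and B6 with vitamin C had peaks in 2, at ranks of 27.4 and 28.9, whereas the ranks were 82.9 to 90.4 in 129 without vitamin C and 79.9 to 87.8 in 129 with vitamin C. At the far end, the ranks were 44.3 in the marked library of B6 without vitamin C and 13.4 and 47.3 in B6 with vitamin C, against 47.9 and 55.4 in 129 without vitamin C and 34.4 to 43.5 in 129 with vitamin C. Counted at the start alone, 2 of the B6 and 6 of the 129 libraries had a peak. The ranks come from lists of different length, were looked at after the gene had been named by its counts and carry no test.

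In the other direction, Ephb1 was marked in 3 of 6 B6 libraries, at 3.8 kb in 1 without vitamin C and at 3.75 and 4.03 kb in 2 with it, and in 0 of 6 129 libraries (exact permutation p = 0.2). Plxna2 was marked in 2 B6 and 0 129 libraries, by peaks of 0.61 and 1.06 kb in the 2 lists of short peaks. Epha5 was marked in 3 B6 and 6 129 libraries (exact permutation p = 0.2), and Slit3 and Nrp1 in 1 and 4, and Robo1 in 2 and 5 (exact permutation p = 0.26 each). Slit1 was marked in 3 and 5, Sema4f and Unc5b in 2 and 4, and Unc5c in 1 and 3. The 129 lists covered more of the genome than the B6 lists of the same diet on average, and the part of that in these counts was not tested.

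Female and male embryos were compared with labels exchanged within each group (81 relabellings, smallest possible p 0.0247). The exact permutation test gave 0 members and 0% of all genes at an adjusted p under 0.05, and 0 members and 0.0289% at an unadjusted p under 0.05. The marked share was higher in females for 7 members, where it was for 27.4% of all genes, in males for 18, where it was for 42.1%, and equal for 10.

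The mark was also counted on genes that work with these ligands and receptors. Of 41 other guidance cues, co-receptors and adhesion molecules, 8 (19.5%) reached 10 libraries and 27 (65.9%) had a peak in some library. The 8 were Dscaml1, the Nogo receptor gene Rtn4r and Islr2 in 12 libraries, Lingo1, a partner of the Nogo receptor, Rtn4rl2 and the GDNF co-receptor gene Gfra1 in 11, and Flrt1 and Plxdc1 in 10. The netrin and repulsive guidance molecule receptor gene Neo1 and the chemokine receptor gene Cxcr4 were marked in 0. Of 47 intracellular effectors of these pathways, 3 (6.38%) reached 10 libraries and 13 (27.7%) had a peak in some library. Over all protein-coding genes the shares were 5.93% and 20.2%.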

How the data were processed

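H3K27me3 peak lists of 12 headfold libraries were analysed; not analysed here were 4 IgG samples and 2 more B6 samples of H3K27me3. Per the submitters' processing notes the tools were cutadapt, Bowtie2, Picard and SEACR, and the build was mm10; information on versions, settings and whether IgG entered peak calling is not given in the sources used here. A list has 6 columns and belongs to 1 library. Total and maximum signal of each peak were deposited by the authors without visible scaling to depth, so signal was ranked only within a list. Depth is unknown, and no interval from counts was possible. Replicate numbers follow accession order and only name the samples, and as the B6 embryos with vitamin C share a pregnancy code, p-values measure only the spread between these samples. The group comparison used exact permutation of the number of marked libraries with Benjamini-Hochberg adjustment and a threshold of 0.05, checked on simulated data. Genes came from RefSeq GRCm38.p6, without mitochondrial genes. Promoter sequences and strands came from the RefSeq promoter table. The members and lists were chosen with earlier results of these data known. Members were named by a rule: those marked in all 12 libraries or in 9 or 10, those with the largest differences (at least 2 libraries, up to 10 in each direction), the leading member of each class, members on X, and pairs under 100 kb apart; other members and the sites within Sema5b, Sema6b and Sema6c were singled out after their values were seen. Alternatives were windows of 0 and 2.5 kb and gene ends only, peaks 1 kb or wider, peaks whose maximum signal reached the median of the list, the 748 strongest peaks of each list, omission of lists with a median width under 2 kb, omission of each library, the covered share of the window in place of presence, embryos of a shared pregnancy averaged, and tests of genes marked in 1 library or more. Tools were pandas 2.3.3, NumPy 2.4.6 and Matplotlib 3.10.9 under Python 3.11.15.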

Additional observations from a re-analysis of the deposited data

How the results depend on the processing

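The number of members marked in at least 10 libraries was 10, and 10 to 15 when a library was left out in turn. It was 1 (Epha10, 1.45% of members against 2.78% of all genes) with only the peaks whose maximum signal reached the median of the list, 3 (4.35% against 2.15%) with the 748 strongest peaks of each list, and 17 (24.6% against 7.62%) without the 2 lists of short peaks, a count over fewer libraries. Calls at an adjusted p under 0.05 stayed at 0 for diet, background, their interaction and sex under every alternative run. The few relabellings left little room for such calls in any of them, so these counts say little about stability. The members tested numbered 21 with the peaks above the median, 12 with equal lists, 30 at gene ends only and 34 without the lists of short peaks, against 35. Direction counts under these settings therefore come from fewer members. Members marked more often without vitamin C numbered 8 with the peaks above the median, 1 with equal lists and 4 to 9 with a library left out, against 5. The count was 8 when B6 without vitamin C replicate 2, B6 with vitamin C replicate 4 or 129 with vitamin C replicate 1 was left out, and 9 for 129 without vitamin C replicate 2. Of all tested genes 11%, 18.1% and 7.13% to 19.7% were marked more often without vitamin C in these settings, against 7.31%. Members marked more often with vitamin C numbered 8 and 6 under the 2 filters on signal, 29 by the covered share of the window and 15 to 26 with a library left out, against 22. Of all tested genes this held for 60% and 44.5% under the filters and for 49.9% to 74.5% with a library left out, against 62.2%. Members marked more in B6 numbered 2 at gene ends only, 3 with equal lists, 10 without the lists of short peaks and 3 to 10 with a library left out, against 5. The count was 10 when 129 without vitamin C replicate 1 or 3 was left out, 9 for B6 without vitamin C replicate 2, 8 for B6 with vitamin C replicate 1 or 2, and 3 for 129 without vitamin C replicate 2. Of all tested genes 8.75%, 16%, 18.9% and 7.72% to 22.5% were marked more in B6 in these settings, against 10.9%. Members marked more in 129 numbered 7 with equal lists, 30 by the covered share and 17 to 27 with a library left out, against 21. Of all tested genes 59.6% were so with equal lists and 49% to 73.6% with a library left out, against 59.3%. For the covered share of the window no share over all genes was computed. The difference of Ntn4 between diets turned to 0.167 with the peaks above the median, and the interaction of Epha2 to -0.333 there and to -0.667 with equal lists. The diet difference was 0 for Robo3 under both filters on signal and 0 for Sema6b with a window of 2.5 kb. The cause of these changes was not tested, beyond the fewer peaks or libraries each leaves. The difference in the share of members marked, without minus with vitamin C, ran from -9.42 to -1.09 points, and B6 minus 129 from -12 to -3.86 points, with a library left out. No paired analysis was possible because the labels give no replicate numbers that tie embryos across groups. Unknown depth limits every absence of a peak, above all in the 4 lists under 10 Mb.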
